A study of Mus musculus with 22 samples.

Results

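The transcript response of the mouse aortic intima to bacterial lipopolysaccharide (LPS) was compared directly with its response to oxidized low-density lipoprotein (oxLDL). The comparison used 6 of the 22 arrays of the series, which were the 3 with LPS in their sample title (replicates 3, 4 and 10) and the 3 with oxLDL in their title (replicates 14, 15 and 16). Both groups came from wild-type C57BL/6 mice on chow. Aortas were opened, placed singly in wells and kept for 4 h in DMEM with 1% serum that held LPS at 4 ng/mL or oxLDL at 50 ug/mL. Cells were then scraped from the intima, and their RNA was amplified and hybridised to 1 Affymetrix array per sample. The labels give no age for the incubated aortas and do not say how many aortas went into an array, so every p-value measures only the spread between these arrays. Both stimuli were given at 1 dose and 1 time, and the differences hold for these doses only. Medium alone (3 arrays) and oxidized PAPC at 50 ug/mL (3 arrays), both for 4 h with 1% serum, help to estimate the spread. LPS and oxLDL were also tested against medium. Fresh wild-type intima (6 arrays, from mice 4 weeks old by the sample titles) gives side levels only.

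LPS is a component of the outer membrane of Gram-negative bacteria. Endothelial cells sense it through TLR4 with its partners MD-2 and CD14. A branch of this receptor's signalling runs through MyD88 to NF-kB, which turns on cytokine, chemokine and adhesion molecule genes, and another runs through TRIF to IRF3, type I interferon and the interferon-stimulated genes. OxLDL is a lipoprotein particle changed by oxidation, a driver of atherosclerosis that cells take up through scavenger receptors. It carries oxidized phospholipids and sterols, which are known to act on the NRF2 antioxidant pathway, on LXR and PPAR nuclear receptors and on stress pathways.

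The 4 promoters below are those of the 4 genes with the largest differences, all higher with LPS. They are printed because each holds letters of the element bound by interferon-regulated factors or by NF-kB. The sequences are the 250 bases before the RefSeq start site in GRCm38.p6, read 5′ to 3′ on the gene's strand. Capitals mark matches on either strand of GAAANNGAA, a core of the interferon-stimulated response element, or of GGGNNNTTC, a core of the NF-kB element.
Cxcl10, chr5:92348890-92349139, minus strand: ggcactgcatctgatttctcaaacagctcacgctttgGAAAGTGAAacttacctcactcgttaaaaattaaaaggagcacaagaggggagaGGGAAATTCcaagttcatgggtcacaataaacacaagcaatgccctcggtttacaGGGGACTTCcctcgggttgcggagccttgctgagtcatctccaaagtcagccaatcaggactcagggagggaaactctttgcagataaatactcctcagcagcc
Ifit1, chr19:34640639-34640888, plus strand: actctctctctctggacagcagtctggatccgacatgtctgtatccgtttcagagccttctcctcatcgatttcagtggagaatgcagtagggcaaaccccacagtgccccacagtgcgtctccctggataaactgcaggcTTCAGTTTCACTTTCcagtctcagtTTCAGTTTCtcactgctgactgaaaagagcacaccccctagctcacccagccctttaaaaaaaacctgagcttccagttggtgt
Mmp13, chr9:7272264-7272513, plus strand: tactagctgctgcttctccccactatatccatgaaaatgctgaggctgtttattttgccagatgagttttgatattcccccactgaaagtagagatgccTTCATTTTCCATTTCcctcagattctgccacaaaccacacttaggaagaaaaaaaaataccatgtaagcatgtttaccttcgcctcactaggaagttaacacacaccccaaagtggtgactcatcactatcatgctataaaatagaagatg
Rsad2, chr12:26456453-26456702, minus strand: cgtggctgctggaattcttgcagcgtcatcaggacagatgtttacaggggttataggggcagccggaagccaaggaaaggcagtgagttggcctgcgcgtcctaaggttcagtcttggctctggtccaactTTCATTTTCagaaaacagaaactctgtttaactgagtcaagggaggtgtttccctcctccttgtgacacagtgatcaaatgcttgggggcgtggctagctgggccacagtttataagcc

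The Cxcl10 promoter held 1 match of GAAANNGAA, which began 213 bases before the start, and 2 of GGGNNNTTC at 159 and 104 bases. Ifit1 held 3 matches of GAAANNGAA, of which those at 109 and 103 bases overlap and the other began at 84. Mmp13 held 2 overlapping matches at 151 and 145 bases, and Rsad2 held 1 at 119. Over windows of 300 bases (250 before to 50 after the start), GAAANNGAA was present in 8.56% of all 32851 RefSeq promoters and 7.23% of promoters of tested genes. It was present in 15.6% of those of genes called higher with LPS (28 of 179 promoters) and 6.75% of those of genes called lower. GGGNNNTTC was present in 14%, 15.2%, 22.3% and 14.3% of the same sets. The AP-1 core TGANTCA was found in 7.81%, 5.88%, 11.2% and 7.59%, and the antioxidant response core TGACNNNGC in 12.4%, 14.3%, 14% and 11.4%. The sterol regulatory core TCACNCCAC was in 1.24% of all promoters and in none of the 179 and 237 promoters of called genes. A match describes these letters in this window and is not a binding site. Of the 7550 tested genes, 6114 had a promoter in the table, and Ccl5, Mx1, Car13, Cxcl5 and Slc40a1 were not matched.

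LPS gave the larger differences upward, in chemokines, interferon-stimulated genes and NF-kB feedback genes, while the genes that were lower with LPS than with oxLDL differed less. A gene was called when limma's moderated test of the difference, LPS minus oxLDL on the log2 scale of the arrays, had a Benjamini-Hochberg adjusted p under 0.05. Of 7550 genes tested, 383 were called (5.07%). LPS was higher in 167 of them (2.21%) and lower in 216 (2.86%). These shares are the reference for the counts of calls in the gene lists below, none of which was tested as a set. An unadjusted p under 0.05 was found for 1625 genes. The median called rise was 0.96 and the median called fall -0.79, against -0.03 over all genes tested. Rises of more than 1 log2 unit numbered 79 and falls 40. Beyond 2 units there were 18 rises and 1 fall, that of Hpgd. With cyclic loess scaling between arrays the split turned to 219 higher and 166 lower, and with each array centred on its median it was 185 and 184. No call shared with these scalings changed direction. Single arrays also turned the split on the deposited scale, to 124 higher and 110 lower without LPS 10, 148 and 118 without oxLDL 14, and 86 and 57 without oxLDL 16. Which direction held more genes thus depended on the scaling and on single arrays. The plot of mean levels shows the few large differences upward.

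**Figure D1:**
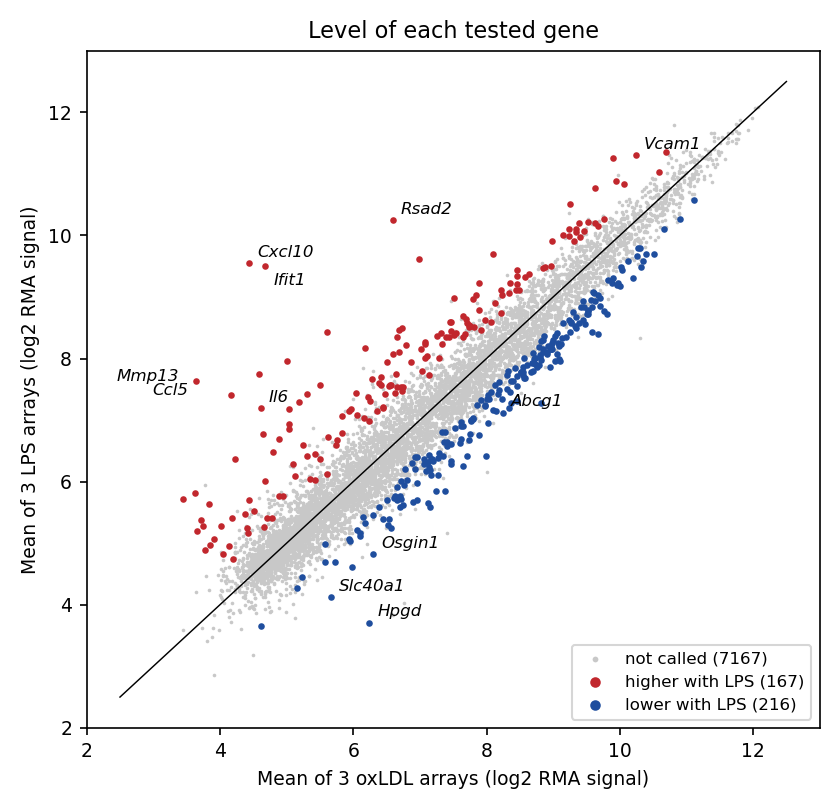
Mean log2 signal of each of 7550 tested genes on the 3 LPS arrays (vertical axis) against its mean on the 3 oxLDL arrays (horizontal axis), with the line of equality. Red points are the 167 genes called higher with LPS, blue points the 216 called lower and grey points the rest; Cxcl10, Ifit1, Mmp13 and Rsad2 lie farthest above the line.

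The arrays of both groups had nearly equal distributions, with medians over all probe sets of 5.24 to 5.27 for LPS and 5.24 to 5.25 for oxLDL. RMA itself equalises distributions, so these medians do not show how alike the samples were. Across all 11807 named genes, before the level filter, LPS arrays correlated with each other at 0.9813 to 0.9873 and with oxLDL arrays at 0.9735 to 0.9798. Of 19 endothelial markers on the array 1 averaged below the 40th percentile of the arrays in each group. Among the 18 tested, 12 differences were below 0, and the median of all 18 was -0.20. Pecam1, the junctional adhesion molecule CD31, read 11.46, 11.36 and 11.25 with LPS and 10.96, 11.03 and 11.18 with oxLDL. The scrapings also held smooth muscle RNA, in overlapping ranges. The smooth muscle markers had array means of 8.03 to 8.43 with LPS and 7.81 to 8.37 with oxLDL. Their most abundant members were Myh11, smooth muscle myosin heavy chain, at 11.33, 11.09 and 11.40 with LPS against 11.29, 11.42 and 11.03 with oxLDL, and Acta2 at 10.73, 10.63 and 11.01 against 11.01, 10.74 and 10.23. In bulk RNA of this kind, fewer cells of a type and less RNA per cell cannot be told apart. No batch is given in the labels.

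The chemokines and cytokines held the largest difference of all. Cxcl10, an interferon-induced ligand of CXCR3 that attracts T cells, read 10.07, 9.58 and 9.01 on the LPS arrays and 4.70, 4.38 and 4.24 on the oxLDL arrays. The groups lay far apart, and medium alone read 4.89, 4.92 and 4.06, like oxLDL. Cxcl10 was thus 5.11 ± 0.336 log2 units higher with LPS (standard error, n = 3 against 3; 34.6-fold; adjusted p = 2.54e-05). Its oxLDL mean of 4.44 lay under the 40th percentile of the arrays, so the fold rests on a level near background, as it does for Ccl5. Ccl5, a chemokine that draws T cells and monocytes, read 7.16, 7.53 and 7.50 with LPS against 4.10, 4.02 and 4.40 with oxLDL, a difference of 3.23 ± 0.228 (adjusted p = 2.85e-05). The antagonist of the interleukin-1 receptor, Il1rn, read 8.31, 8.79 and 8.20 against 5.15, 6.19 and 5.49, a difference of 2.82 ± 0.286, and its agonist Il1b 9.58, 9.89 and 9.58 against 8.60, 7.82 and 7.89, a difference of 1.58 ± 0.275. Of 35 cytokine and chemokine genes on the array 19 were tested, and 12 of these were called higher with LPS and none lower, with a median difference of 1.14. With no filter on levels, 11 of the 35 were called, and over all alternatives the median ranged from 0.61 to 1.25.

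The ligands of the neutrophil receptor CXCR2 were among the 12. Cxcl1 read 11.33, 11.19 and 11.22 with LPS and 10.22, 9.79 and 9.68 with oxLDL (difference 1.35 ± 0.242, adjusted p = 0.0111). Cxcl2 read 10.66, 10.72 and 10.95 against 9.64, 9.71 and 9.55 (1.14 ± 0.137, adjusted p = 0.00141). Both groups were tight and did not overlap, and medium alone averaged 9.88 for Cxcl1 and 9.38 for Cxcl2, at or below the oxLDL means of 9.90 and 9.63. Cxcl5 was 2.14 ± 0.45 higher with LPS from an oxLDL mean of 4.22, a level near background (under the 40th percentile of the array). Its call was lost without LPS 3 or 4 or oxLDL 15 or 16 (adjusted p = 0.0646 to 0.0818). Cxcl16, a transmembrane chemokine that also binds oxidized lipoprotein, was 0.87 ± 0.173 higher and lost its call without any of the same 4 arrays (adjusted p = 0.0506 to 0.0607). Its second probe set gave 0.87 ± 0.194 (adjusted p = 0.0284). Csf1, the growth factor of macrophages, was 0.82 ± 0.214 higher, and its call was lost without any of 10 arrays, up to an adjusted p of 0.145. The other Csf1 probe sets gave 1.09 to 1.43 and were called (adjusted p = 0.00231 to 0.0185). These other probe sets were read on the same arrays and were not refitted with arrays left out. Ccl3 and Il12b were 1.12 ± 0.159 and 1.23 ± 0.169 higher, from oxLDL means of 3.85 and 4.18 near background.

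Il6 showed the widest spread of the group. It read 7.86, 6.82 and 6.90 with LPS, 6.11, 4.53 and 3.19 with oxLDL and 6.87, 6.18 and 5.13 in medium. The LPS and oxLDL arrays did not overlap, but the medium arrays spanned the gap, and Il6 in fresh intima averaged 2.60. The difference of 2.58 ± 0.672 was called at an adjusted p of 0.0472, and leaving out any of 9 of the 12 incubated arrays ended the call (adjusted p = 0.0537 to 0.14). Those arrays were LPS 3, 4 and 10, oxLDL 15 and 16, medium 9 and 10 and oxPAPC 11 and 12. The 7 tested members that were not called included Csf2 (GM-CSF) at 1.28 ± 0.345 (adjusted p = 0.0549), Ccl9 at 0.94 ± 0.247 (0.0504), Ccl2 at 0.69 ± 0.34 (0.272), Lif at 0.61 ± 0.403 (0.43) and Cxcl12 at -0.22 ± 0.222 (0.619). Tnf and Ifnb1 did not pass the level filter. Their means were near background with both stimuli, and Tnf read 4.51, 5.11 and 4.37 with LPS and 4.00, 4.46 and 4.26 with oxLDL.

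Interferon-stimulated genes formed the other large block. Ifit1, which binds viral RNA that lacks the cap methylation of the host, read 10.21, 9.34 and 8.96 with LPS and 4.83, 4.79 and 4.41 with oxLDL, a difference of 4.82 ± 0.414 (28.3-fold, adjusted p = 0.000102). Its oxLDL mean of 4.68 lay just above the 40th percentile of the arrays, so the fold rests on a level near background. In medium Ifit1 read 6.63, 6.84 and 5.54, so all 3 medium arrays lay above all oxLDL arrays (oxLDL minus medium -1.66 ± 0.414, adjusted p = 0.0531, not called). Rsad2, the antiviral enzyme viperin, read 10.82, 10.37 and 9.56 with LPS against 6.32, 6.63 and 6.84, a difference of 3.66 ± 0.375. A pair of other Rsad2 probe sets gave 4.13 ± 0.356 and 3.96 ± 0.36. Ifit3 read 10.44, 9.63 and 8.78 against 7.20, 7.06 and 6.72, and Ifit2 8.46, 8.39 and 7.02 against 5.26, 4.97 and 4.75. For Ifit1, Ifit2, Ifit3, Rsad2, Cxcl10 and Mx1 the LPS replicate 10 was the lowest of the 3 LPS arrays, and it still lay above every oxLDL array. Mx1, a dynamin-like antiviral GTPase, read 6.37, 6.47 and 4.63 with LPS, over oxLDL values of 3.59, 3.53 and 3.73.

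Of 50 interferon-response genes on the array 42 were tested. LPS was higher in 14 that were called, and none was called lower, with a median of 0.93 over the 42. With no level filter, 15 of the 50 were called, and over all alternatives the median ranged from 0.59 to 1.27. The other called members were Ifi209 (3.17 ± 0.238), Oasl1 (2.28 ± 0.334), Ifi205 (2.07 ± 0.339), Cmpk2 (1.91 ± 0.345), Ifi203 (1.77 ± 0.377), Rtp4 (1.69 ± 0.368), Parp14 (1.48 ± 0.317) and Ifih1 (1.29 ± 0.265). Ifi209, Ifi205 and Ifi203 are neighbouring members of the p200 family with related sequence, so their probe sets may share signal. The oxLDL means of Ifi209, Oasl1 and Mx1 lay below the 40th percentile, which limits the sizes of their differences. Ifih1 encodes MDA5, a cytosolic sensor of double-stranded RNA. The calls of Ifi203, Rtp4, Parp14 and Ifih1 were lost without LPS 3 or oxLDL 16, and some of them also without LPS 4, oxLDL 14 or oxLDL 15 (adjusted p = 0.0512 to 0.0848). The 10 others in the list stayed called whichever of the 12 arrays was left out. Among the 28 tested members that were not called, Oasl2 differed by 1.50 ± 0.496 (adjusted p = 0.104), Sp100 by 1.31 ± 0.437 (0.109), Stat2 by 0.76 ± 0.262 (0.116) and Irf1 by 0.59 ± 0.229 (0.161). Ifitm3 was at 11.49, 11.39 and 11.35 with LPS and 11.39, 11.43 and 11.42 with oxLDL, with a 95% interval of the difference from -0.29 to 0.29. Usp18 and Irf7 did not pass the level filter and read 6.66, 5.69 and 4.31 against 3.55, 3.76 and 3.57, and 5.06, 4.39 and 4.55 against 4.09, 4.22 and 4.38.

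**Figure D2:**
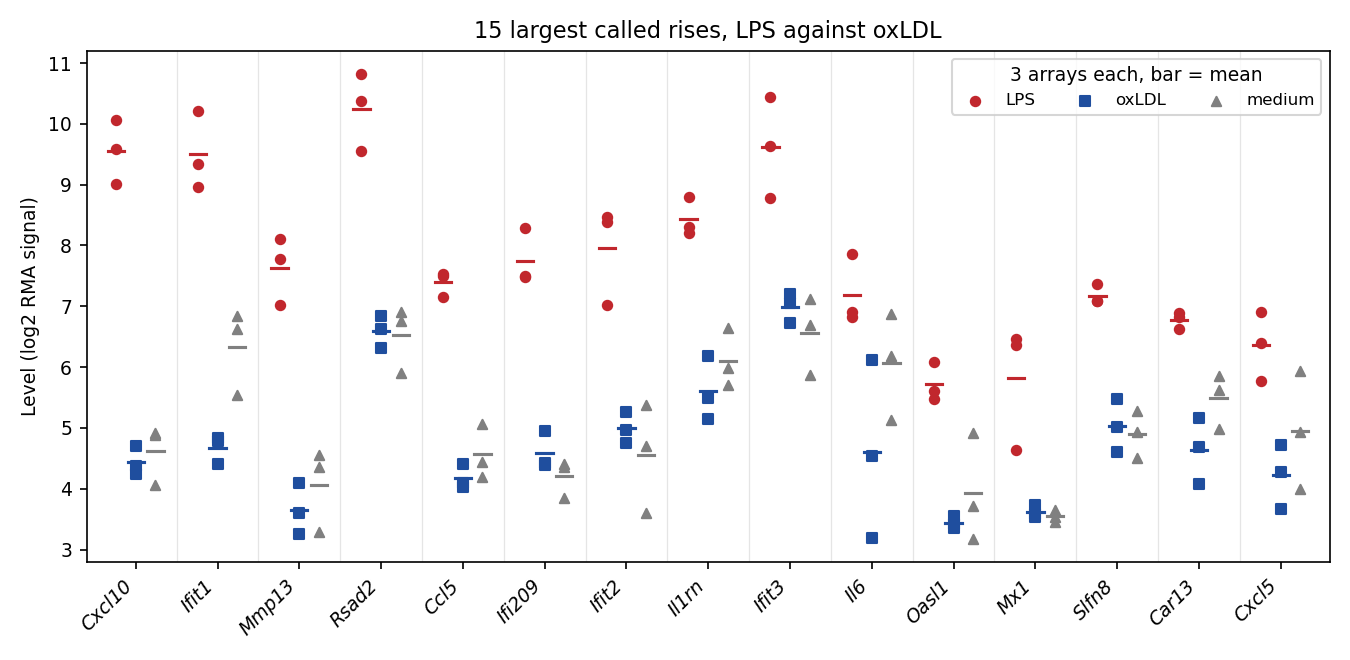
Log2 signal of the 15 genes with the largest called differences upward, on each LPS (red circles), oxLDL (blue squares) and medium (grey triangles) array, with a bar at the mean of each group of 3. Every LPS array lies above every oxLDL array for each gene, and Il6 has the widest oxLDL spread, from 3.19 to 6.11.

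The NF-kB list holds the subunits of the factor, its inhibitors and the feedback genes it induces. Of 17 tested members 7 were called higher with LPS and none lower, with a median of 0.65. Rel, the c-Rel subunit, read 8.24, 7.94 and 8.48 with LPS and 6.81, 6.76 and 6.80 with oxLDL, a difference of 1.43 ± 0.154 (adjusted p = 0.000773). Nfkbia, which encodes the inhibitor IkB-alpha, read 9.12, 9.01 and 8.83 against 7.53, 7.67 and 7.33 (1.48 ± 0.185). The inhibitor gene Nfkbie was 1.81 ± 0.266 higher and Tnfaip3, the A20 enzyme that ends NF-kB signalling, 1.53 ± 0.22, in both cases from an oxLDL mean below the 40th percentile. Tnip1, a partner of A20, was 1.21 ± 0.275 higher, Traf1 1.00 ± 0.253 and mitochondrial superoxide dismutase Sod2 1.26 ± 0.217. The call of Tnip1 was lost without LPS 3 or 4 or any oxLDL array (adjusted p = 0.0662 to 0.0953), and that of Traf1 also without medium 9 or 10 or oxPAPC 11 or 12 (up to 0.134). The other 5 stayed called whichever array was left out. Birc3 was at 1.05 ± 0.287 with an adjusted p of 0.0579. Rela (-0.39 ± 0.178), Relb (0.50 ± 0.219), Nfkb2 (0.38 ± 0.141) and Nfkbiz (0.22 ± 0.145) were not called.

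The genes of the LPS receptor and of its signalling proteins were then examined. Of 14 tested members 1 was called, against 5.07% of all genes: Tlr2, a receptor of bacterial lipoproteins, with a list median of -0.02. Tlr2 read 7.77, 7.38 and 6.39 with LPS and 6.40, 5.88 and 5.65 with oxLDL, so LPS replicate 10 lay at the highest oxLDL array. It was the only called gene whose groups touched, and its call (1.21 ± 0.305, adjusted p = 0.0426) was lost without any of 8 arrays (0.0548 to 0.133), which were LPS 3 and 4, oxLDL 15 and 16, medium 9 and 10 and oxPAPC 11 and 12. Tlr4 itself read 8.70, 8.87 and 8.53 with LPS and 9.24, 9.07 and 9.54 with oxLDL (-0.58 ± 0.182, adjusted p = 0.0872, not called). The adaptor Myd88 read 6.34, 6.12 and 5.79 against 6.53, 6.12 and 6.06, with a 95% interval of the difference from -0.53 to 0.23. Cd14 and Ly96, the gene of MD-2, differed by 0.27 ± 0.271 and -0.54 ± 0.35.

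Among cytokine receptor signalling genes, Jak1, the kinase of the interferon and interleukin-6 receptors, was 0.98 ± 0.164 higher with LPS (adjusted p = 0.00804). It read 9.57, 9.39 and 9.33 with LPS and 8.27, 8.47 and 8.61 with oxLDL. Medium, at 9.28, 9.39 and 9.13, lay with LPS, and oxLDL was lower than medium (-0.82, adjusted p = 0.0234). Other Jak1 probe sets gave 0.48 ± 0.122 and 0.05 ± 0.156. Socs4 was called at 0.89 ± 0.226, while its other probe sets gave -0.58 and -0.10. Its call was lost without medium 9 or 10, oxPAPC 12 or any of the 6 LPS and oxLDL arrays (adjusted p = 0.0508 to 0.142). The list held 13 tested genes, 2 of them called (against 5.07% of all tested genes), with a median of 0.02.

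Of 14 tested leukocyte adhesion genes, 1 was called, against 5.07% of all tested genes. Vcam1, which holds monocytes and lymphocytes through the integrin VLA-4, read 11.48, 11.34 and 11.10 with LPS and 10.40, 10.12 and 10.20 with oxLDL, a difference of 1.07 ± 0.25 (adjusted p = 0.032). The groups lay apart, with medium at 10.88, 10.43 and 10.48 nearer to oxLDL. The call was lost without any of the 6 LPS and oxLDL arrays (adjusted p = 0.0522 to 0.0977). Sele, E-selectin, read 11.84, 11.77 and 11.80 with LPS and 10.81, 10.97 and 10.69 with oxLDL, with no overlap. It was not called with the spread shared over the 4 incubated groups (0.98 ± 0.296, adjusted p = 0.0792). Icam1 read 11.77, 11.71 and 11.54 against 11.35, 11.43 and 11.43 (0.27 ± 0.124, adjusted p = 0.234), and Selp was at 0.49 ± 0.326 (0.434). The list median was 0.29.

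Matrix proteases differed in both directions. Mmp13, collagenase 3, which cleaves fibrillar collagen, read 7.02, 8.10 and 7.77 with LPS and 4.09, 3.25 and 3.60 with oxLDL, a difference of 3.99 ± 0.341 (15.9-fold, adjusted p = 0.000102). The oxLDL mean of 3.64 lay below the 40th percentile of its arrays and medium averaged 4.06, so the fold rests on a level near background. Mmp14, the membrane-bound protease that activates other metalloproteinases, was 1.34 ± 0.209 higher with LPS, and its other probe set gave 0.40 ± 0.213. The lysosomal cathepsins Ctsd and Ctsb were lower with LPS, by -0.81 ± 0.165 and -0.49 ± 0.125. Ctsb read 9.76, 9.85 and 9.78 against 10.31, 10.24 and 10.30, a small difference between tight groups, which its other probe sets (-0.18, 0.24 and -0.17) did not share. Its call was lost without any of 10 of the 12 arrays (adjusted p = 0.0558 to 0.116), and that of Ctsd without LPS 10, oxLDL 15 or oxLDL 16 (up to 0.0716). The list held 19 tested genes, 2 called in each direction, with a median of -0.16.

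Other genes among the 15 largest differences upward were Slfn8, a Schlafen family member, and Car13, a cytosolic carbonic anhydrase. Slfn8 read 7.37, 7.08 and 7.08 with LPS and 5.48, 4.60 and 5.02 with oxLDL (2.14 ± 0.253). Car13 read 6.82, 6.63 and 6.89 against 5.16, 4.68 and 4.08 (2.14 ± 0.268), and its other probe set was called in the same direction at 0.91 ± 0.226. The oxLDL mean of Car13, 4.64, lay just above the 40th percentile of the arrays, so its difference rests on a level near background. Slfn8 and Car13 stayed called whichever array was left out.

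In the other direction, the largest difference was that of Hpgd, the dehydrogenase that inactivates prostaglandins. Hpgd read 4.09, 3.33 and 3.72 with LPS and 6.28, 6.24 and 6.20 with oxLDL. The groups lay apart, but medium ranged widely, at 6.30, 8.31 and 5.38. Hpgd's LPS mean of 3.71 lay below the 40th percentile of its arrays, so the fold rests on a level near background. The difference was -2.52 ± 0.638 (5.75-fold lower with LPS, adjusted p = 0.0423), and its call was lost without any of 8 arrays (0.0558 to 0.126), which were the 6 LPS and oxLDL arrays, medium 9 and oxPAPC 11. A second Hpgd probe set gave -1.34 ± 0.513, not called. Hpgd was the only call among 11 tested genes of prostaglandin and leukotriene synthesis and breakdown, whose median was 0.08. Ptgs2, the inducible cyclooxygenase, read 11.19, 11.24 and 11.42 with LPS against 11.19, 10.99 and 11.02.

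Tnfsf13, the B cell ligand APRIL, read 6.22, 6.57 and 6.45 with LPS and 7.46, 8.41 and 8.10 with oxLDL, around medium values of 7.36, 7.45 and 7.42. Its difference of -1.58 ± 0.256 (adjusted p = 0.00794) stayed called whichever array was left out. So did those of Osgin1 (-1.48 ± 0.249), Pald1 (-1.47 ± 0.237), a phosphatase-like protein of blood vessels known as paladin, Exoc4 (-1.27 ± 0.201), a subunit of the exocyst that tethers secretory vesicles, and Ip6k1 (-1.53 ± 0.176), an inositol phosphate kinase. For Ip6k1 the other 4 probe sets gave -0.11, 0.57, -0.09 and -0.20, so the difference was seen by its brightest probe set alone. Exoc4 was lower on 3 further probe sets (-0.98, -0.83 and -0.46) and higher on 1 (0.58).

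Amot, an angiomotin that links junctions to Hippo signalling, read 5.32, 6.11 and 5.33 with LPS and 7.08, 7.38 and 6.99 with oxLDL (-1.56 ± 0.347), and its other probe sets gave -0.45 and -0.15. Cdt1, which licenses replication origins, read 5.33, 6.11 and 6.11 against 7.22, 7.44 and 7.04 (-1.39 ± 0.257), with other probe sets at -0.29 and 0.09. Rhpn2 differed by -1.54 ± 0.328, Myzap, a junction-associated protein of heart and endothelium, by -1.39 ± 0.298, and Ccdc102a by -1.36 ± 0.292, with a second Ccdc102a probe set near 0 with a standard error of 0.129. Mettl7a1 and Thap11 were lower with LPS by -1.27 ± 0.271 and -1.26 ± 0.298, and the other Mettl7a1 probe sets gave -0.72 to -0.18. Each of these 7 lost its call without at least 1 of the LPS and oxLDL arrays, with adjusted p-values of up to 0.11, and no array outside those groups ended any of these calls.

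**Figure D3:**
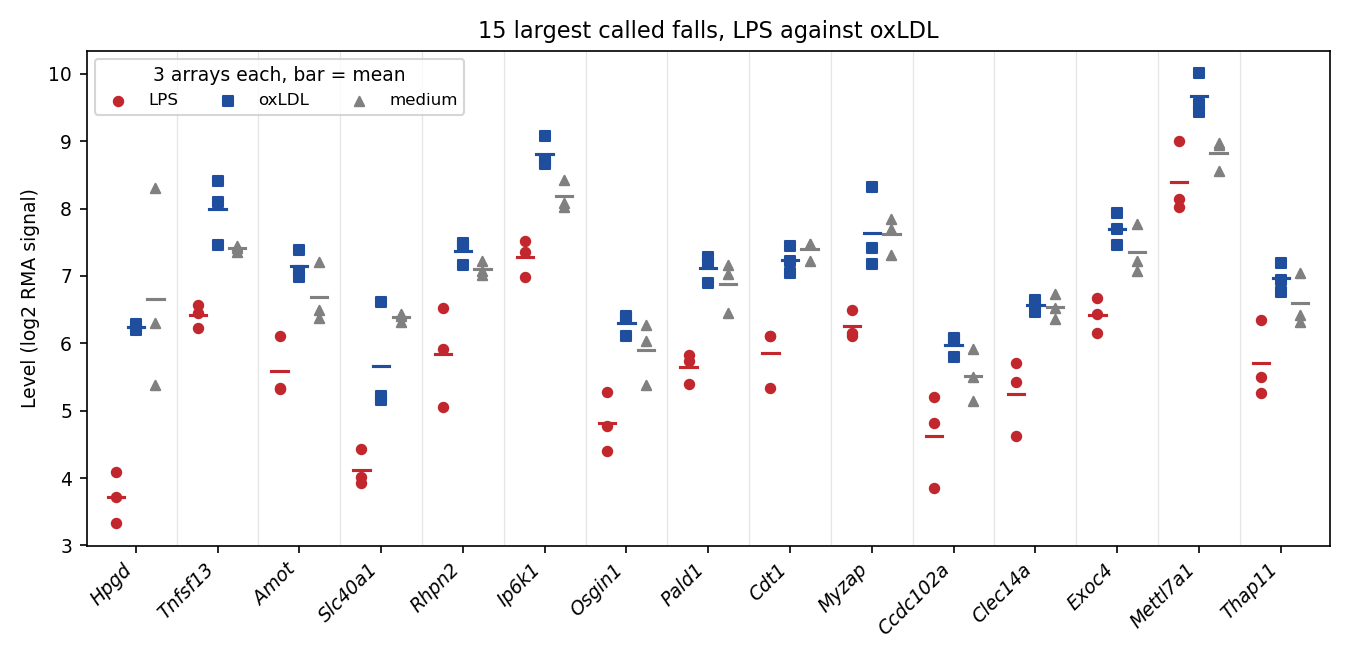
Log2 signal of the 15 genes with the largest called differences downward, on each LPS (red circles), oxLDL (blue squares) and medium (grey triangles) array, with a bar at the mean of each group of 3. Every LPS array lies below every oxLDL array for each gene, and the medium values of Hpgd spread from 5.38 to 8.31.

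Genes of lipid handling, pathways known to respond to oxidized lipoprotein, followed. Of 10 tested LXR targets 2 were called, both lower with LPS, against 2.86% of all tested genes called lower. Of the 10 differences 9 were negative, and the median was -0.54. Abcg1, which exports cholesterol to high-density lipoprotein, read 7.34, 7.48 and 6.55 with LPS and 8.29, 7.99 and 8.43 with oxLDL (-1.11 ± 0.265, adjusted p = 0.0329). Medium read 8.37, 7.70 and 8.41, so it was the LPS arrays that stood apart from medium (-1.04, adjusted p = 0.0341), and oxLDL differed from medium by 0.07. Scd1, a fatty acid desaturase, read 7.76, 7.78 and 7.58 against 8.56, 8.53 and 8.27 (-0.75 ± 0.152, adjusted p = 0.0194), and its other probe set gave -0.23 ± 0.278. The call of Abcg1 was lost without any of the 6 LPS and oxLDL arrays (0.0503 to 0.106), and that of Scd1 without LPS 4 or 10 or oxLDL 14 or 15 (0.0525 to 0.0663). Mylip, which marks the LDL receptor for breakdown, was at -0.64 ± 0.296 (adjusted p = 0.241).

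None of 13 tested sterol synthesis genes and none of 22 PPAR and fatty acid genes was called, with medians of 0.28 and -0.25. The smallest p of the sterol list was that of Srebf2, the transcription factor that drives the pathway, which read 5.37, 4.88 and 6.43 with LPS and 4.29, 4.22 and 4.84 with oxLDL (1.11 ± 0.34, adjusted p = 0.0826). Medium lay at 5.23, 6.04 and 5.51, on the side of LPS. Squalene epoxidase Sqle was at 0.57 ± 0.311 (0.329), and Cpt1a, the gate of mitochondrial fatty acid oxidation, at -0.87 ± 0.251 (0.0702). Among 12 tested scavenger receptors, Cxcl16 was called higher, as given above, and Stab1, an endothelial and macrophage clearance receptor, lower (-0.61 ± 0.153, adjusted p = 0.0423). Stab1 lost its call without any of 9 arrays (up to 0.127). Olr1, the endothelial oxLDL receptor LOX-1, read 9.12, 9.27 and 8.55 with LPS and 9.53, 8.65 and 8.74 with oxLDL, and the 95% interval of its difference, from -1.22 to 1.24, is too wide to place it. Cd36 read 4.89, 6.68 and 6.94 against 6.76, 6.90 and 6.54 (-0.56 ± 0.404).

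Targets of NRF2, the transcription factor of the antioxidant response, held 3 calls. Of 28 tested, 19 differences were negative, 2 genes were called lower and 1 higher, and the median was -0.23. Over all tested genes 2.86% were called lower and 2.21% higher. Osgin1, a growth inhibitor induced by oxidized lipids, read 4.40, 4.77 and 5.28 with LPS and 6.11, 6.38 and 6.41 with oxLDL (adjusted p = 0.00804), with medium at 6.27, 6.03 and 5.38. Thioredoxin reductase Txnrd1 read 9.99, 10.13 and 10.19 against 10.55, 10.72 and 10.73 (-0.56 ± 0.127, adjusted p = 0.0268). Here medium, at 10.26, 10.26 and 10.10, lay with LPS, and the call was lost without LPS 3 or 4 or oxLDL 15 or 16 (0.073 to 0.089). Nqo1 (-0.90 ± 0.36, adjusted p = 0.172), Srxn1 (-0.76 ± 0.296, 0.159) and Hmox1 (-0.51 ± 0.229, 0.222) were not called, and for Nqo1 and Srxn1 no LPS array reached an oxLDL array. The cystine transporter Slc7a11 went the other way, at 6.54, 7.09 and 6.43 with LPS and 4.35, 4.96 and 5.35 with oxLDL (1.80 ± 0.429, adjusted p = 0.0329). Its call was lost without medium 9 or any of the 6 LPS and oxLDL arrays (0.0503 to 0.113). Gclc and Gclm, the subunits of the enzyme that starts glutathione synthesis, differed by 0.01 ± 0.172 and 0.10 ± 0.251.

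None of 32 tested genes of ATF4 and the unfolded protein response was called (median -0.14, smallest p for Psat1 at 0.63 ± 0.167, adjusted p = 0.051). Of 17 heat shock genes 1 was called: Bag3, a cochaperone, read 8.46, 8.33 and 8.67 with LPS and 9.43, 9.46 and 9.14 with oxLDL (-0.86 ± 0.211, adjusted p = 0.0389), and its call was lost with either other scaling and without any of 7 arrays (0.0564 to 0.121). Immediate early genes had 1 call in each direction among 27, Gadd45b at 1.11 ± 0.275 and Maff at -0.54 ± 0.141, and 8 and 11 of the 12 left-out arrays ended those calls. For Gadd45b the medium arrays, at 8.40, 7.97 and 8.09, lay with LPS (7.76, 8.61 and 8.72) and above oxLDL (7.55, 7.08 and 7.15).

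Endothelial markers and regulators of vessel quiescence gave scattered calls (5.07% of all tested genes were called). Among 18 tested endothelial markers, Clec14a, an endothelial lectin-like protein of vessel growth, and Vwf, von Willebrand factor, were lower with LPS and Emcn, the sialomucin endomucin, was higher. Clec14a read 5.42, 4.63 and 5.71 with LPS and 6.65, 6.47 and 6.59 with oxLDL (-1.32 ± 0.259, adjusted p = 0.0174), with medium at 6.73, 6.36 and 6.53, and its other probe set gave -0.60 ± 0.268. Vwf read 9.83, 9.75 and 9.51 against 10.21, 10.50 and 10.47 (-0.70 ± 0.165, adjusted p = 0.0329). Emcn read 9.62, 9.46 and 9.32 with LPS and 8.75, 8.62 and 9.16 with oxLDL (0.63 ± 0.159, adjusted p = 0.0428), both below medium at 10.13, 9.91 and 9.88. Clec14a lost its call without oxLDL 16 (0.0537), Vwf without medium 9 or any LPS or oxLDL array but oxLDL 14 (up to 0.105), and Emcn without any of 10 arrays (up to 0.14). The array means of all 18 markers were 8.13 to 8.55 with LPS, 8.42 to 8.69 with oxLDL and 8.72 to 8.87 in medium, and the part of this in the results was not tested.

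Notch1, a receptor that holds arterial endothelium quiescent, read 9.26, 9.06 and 9.29 with LPS and 9.82, 10.09 and 9.98 with oxLDL (-0.76 ± 0.128, adjusted p = 0.00804), and stayed called whichever array was left out. A second probe set gave -0.64 ± 0.255, not called. Gch1, which makes the cofactor of nitric oxide synthase, was higher with LPS (0.73 ± 0.182, adjusted p = 0.0395). Its LPS arrays, at 8.62, 8.29 and 8.30, lay near medium at 8.57, 8.59 and 8.79, and oxLDL was lower, at 7.80, 7.70 and 7.51 (oxLDL minus medium -0.98, adjusted p = 0.0198). Its call was lost without any of 9 arrays (up to 0.125), and its other probe set gave -0.17. Endothelial nitric oxide synthase, Nos3, differed by 0.08 ± 0.424, and Klf2, a flow-induced factor, by -0.57 ± 0.395 with overlapping arrays. Of 29 TGF-beta and BMP genes, Bmp6, a ligand made by endothelium, read 9.40, 9.27 and 9.22 with LPS and 10.19, 10.15 and 10.28 with oxLDL (-0.90 ± 0.157, adjusted p = 0.00986), with medium between at 9.98, 9.66 and 10.03. It stayed called whichever array was left out. Ski, a repressor of TGF-beta signalling, was lower by -0.98 ± 0.209, and was lost without LPS 3 or 4 or oxLDL 15 or 16 (up to 0.0765). Vwf was also the only call among 15 coagulation genes.

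Iron genes held 3 calls among 12, against 5.07% of all tested genes. Slc40a1, which encodes ferroportin, the iron exporter, read 3.93, 4.43 and 4.01 with LPS and 5.16, 5.22 and 6.61 with oxLDL (-1.54 ± 0.309, adjusted p = 0.0181). Its LPS mean lay below the 40th percentile of its arrays, medium was at 6.31, 6.41 and 6.43, a second probe set gave -0.47 ± 0.498, and the call was lost without LPS 3 or 10 (0.0655 and 0.0522). Cp, ceruloplasmin, which oxidizes the exported iron, read 6.61, 6.32 and 6.05 against 7.20, 7.27 and 6.89 (-0.80 ± 0.166), and both groups lay below medium at 8.14, 7.98 and 7.89 (adjusted p = 0.000392 with LPS and 0.0198 with oxLDL). Steap3, the reductase of endosomal iron, ran opposite, at 7.42, 6.94 and 6.90 with LPS and 5.99, 6.02 and 6.14 with oxLDL (1.04 ± 0.218), with medium at 7.41, 7.39 and 7.04 beside LPS. The calls of Cp and Steap3 were each lost without some of the LPS and oxLDL arrays (up to 0.0728 and 0.073).

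The remaining lists had at most 1 call each. Nid1, a linker of the basement membrane, was lower with LPS (-0.61 ± 0.129), as were Pfkfb3, which speeds glycolysis (-0.60 ± 0.148, 23 hypoxia and glycolysis genes tested), and Ndufb5, a complex I subunit (-0.64 ± 0.145, 47 oxidative phosphorylation genes tested). Second probe sets of these 3 genes gave 0.23, 0.17 and -0.27, none of them called. The proliferation marker Mki67 (0.87 ± 0.208, 17 mitosis genes tested) and the apoptosis effector Bak1 (0.89 ± 0.213, 24 tested) were higher with LPS, with a second Bak1 probe set at 0.10 ± 0.285. Each of these 5 calls was lost without at least 5 of the 12 arrays. No gene was called among 26 interstitial matrix genes (smallest p for Lox at 0.56 ± 0.168, adjusted p = 0.079), 16 antigen presentation genes (H2-Eb1 at -0.60 ± 0.183, 0.0823), 13 complement genes (Serping1 at -1.13 ± 0.315, 0.0617), 12 genes of the VEGF and angiopoietin system (Pgf at -0.87 ± 0.252, 0.0708) and 8 insulin-like growth factor genes (Igfbp5 at -1.97 ± 0.676, 0.115). The plot of the gene lists sets these beside the chemokine, interferon and NF-kB lists.

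**Figure D4:**
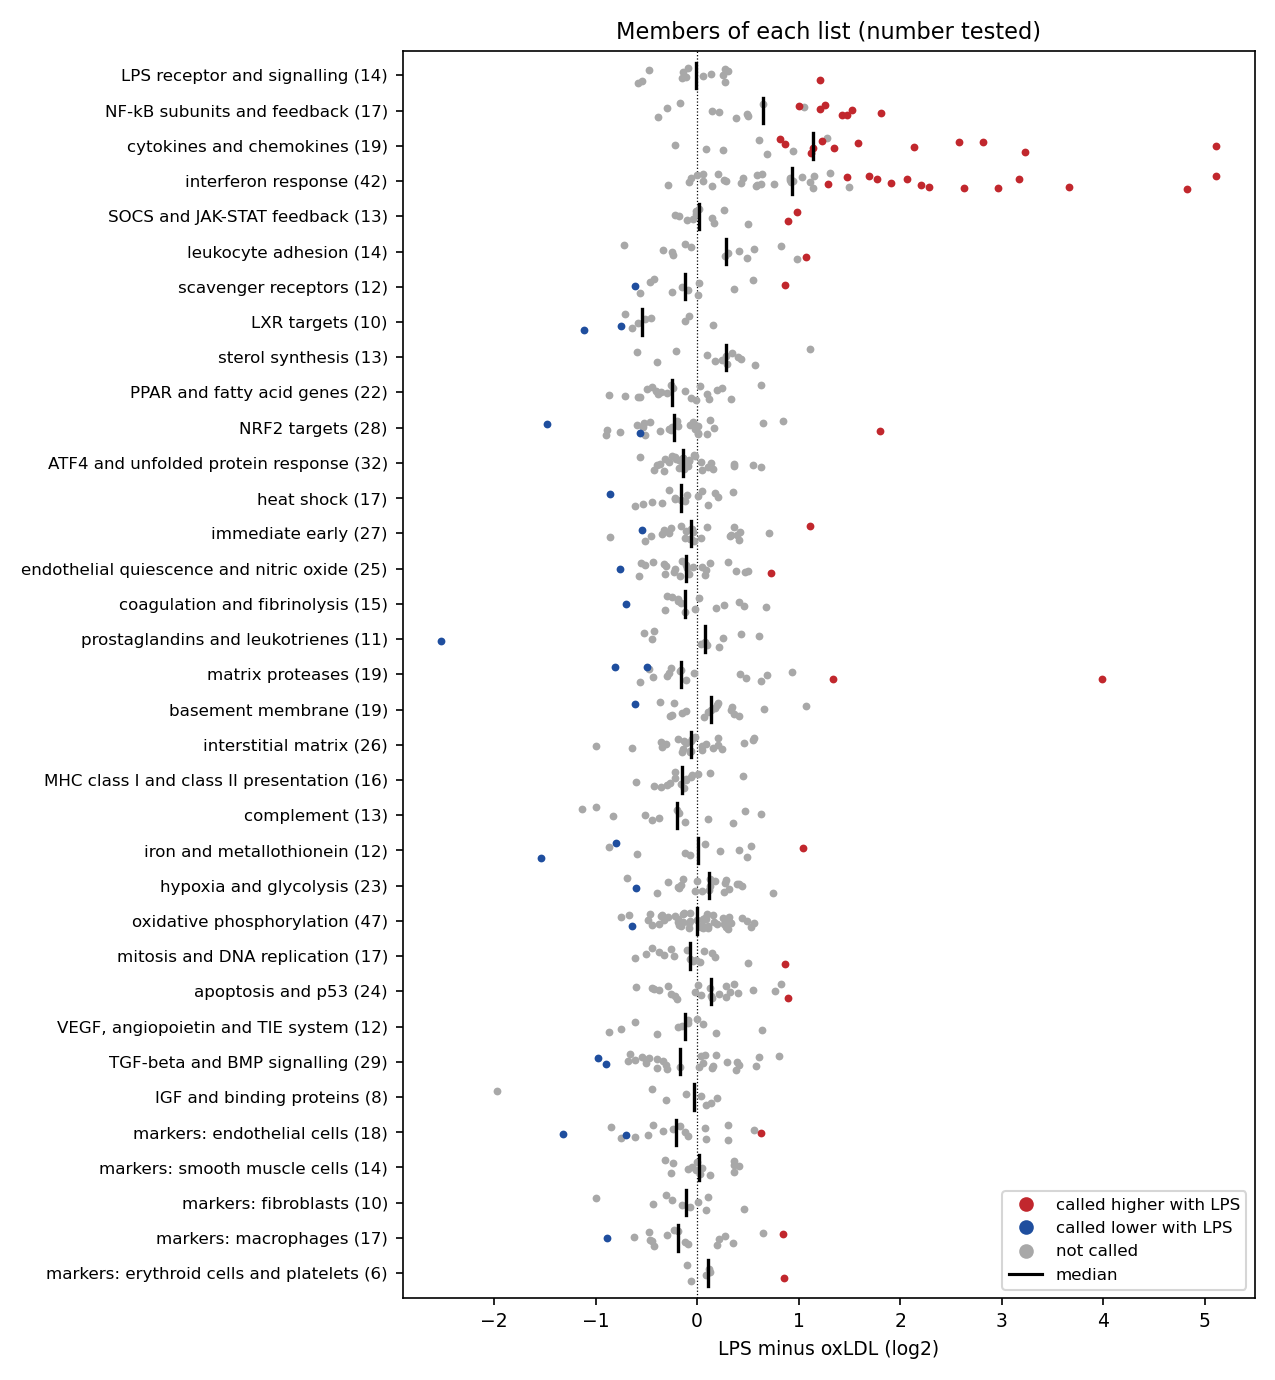
Difference LPS minus oxLDL (log2) of each tested member of the gene lists with at least 5 tested genes, 1 list per row with the number tested, red for called higher with LPS, blue for called lower, grey for not called and a black bar at the list's median. The cytokine, interferon and NF-kB lists have medians of 1.14, 0.93 and 0.65 and no blue point, and most other medians lie near 0.

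Markers of other cells were examined beside these results. None of 14 smooth muscle and none of 10 fibroblast markers was called, with medians of 0.01 and -0.11. Of 17 tested macrophage markers, Lyz2, lysozyme, was lower with LPS (7.62, 7.82 and 8.27 against 8.72, 8.54 and 9.12; -0.89 ± 0.193) and Fcgr1, an antibody receptor that interferon also induces, was higher (0.85 ± 0.217). Their array means were 5.51 to 6.11 with LPS and 5.77 to 6.03 with oxLDL, which overlap, and Cd68 read 5.05, 6.19 and 5.97 against 6.03, 6.22 and 6.23. Of 15 T, NK and B cell genes on the array 12 averaged below the 40th percentile with both stimuli, and of the 4 tested Cd247 was called lower with LPS (-0.71 ± 0.176) by 1 of its 4 probe sets. Neutrophil markers were below that level in 9 of 11. Of 6 tested erythroid and platelet genes 1 was called, with a list median of 0.10 and array means of 6.76 to 7.22 with LPS and 6.66 to 7.10 with oxLDL. It was alpha-globin Hba-a2, which was higher with LPS: 9.98, 10.06 and 9.97 against 9.39, 9.17 and 8.87 (0.86 ± 0.152, adjusted p = 0.0102), with medium at 10.04, 9.86 and 10.05. Which cells this transcript came from was not tested. Lyz2, Fcgr1 and Cd247 lost their calls without 3, 8 and 8 of the 12 arrays, and Hba-a2 kept its call. The part of these cells' RNA in the results above was not tested.

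The medium arrays give each difference a reference level. Both stimuli are set here against the same 3 medium arrays, so the values share them and are given side by side only. The genes were picked by LPS minus oxLDL, which by itself favours calls against medium in the matching direction. Shares of such calls over all 7550 tested genes are not given here, so the counts only describe the called genes. Of the 167 genes called higher with LPS, 65 were also called higher with LPS than with medium, 44 were called lower with oxLDL than with medium, and 58 had neither call. Cxcl10 is of the first kind (LPS minus medium 4.93, oxLDL minus medium -0.18), Jak1 of the second (0.16 and -0.82) and Vcam1 of the last (0.71 and -0.36). Of the 216 called lower with LPS, 97 were called lower with LPS than with medium, as Notch1 (-0.96 and -0.20), 9 higher with oxLDL than with medium, and 110 had neither call, as Txnrd1 (-0.10 and 0.46). The medium mean lay between both stimuli for 111 of the rises and 167 of the falls, below both for 30 and 6, and above both for 26 and 43.

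The LPS and oxLDL arrays did not overlap for 166 of the 167 rises and for all 216 falls, against 1994 of all 7550 tested genes (26.4%). These genes were picked by the same difference on the same arrays. The picking itself favours such separation, which is thus no support for the calls. In 25 of the rises the oxLDL mean lay under the 40th percentile of the arrays, as did the LPS mean in 6 of the falls. Sizes there depend on signals near background. Among other probe sets of called genes, 200 of 300 differed in the same direction. Hdlbp and Sec16a each had a second probe set called in the opposite direction. Of the 383 called genes, 93 (56 higher and 37 lower) were called whichever of the 12 incubated arrays was left out. Leaving out LPS 3, 4 or 10 gave 177, 133 and 234 calls, and leaving out oxLDL 15 or 16 gave 156 and 143.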

How the data were processed

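The authors deposited log2 signals, per the labels one array per sample. The submitters' processing notes name RMA and the affy package without versions; joint normalization is not stated, and the genome build is not given in the sources used here. RMA equalises the distributions of arrays, which hides any shift common to most genes. Per the labels' protocols, RNA had an integrity number of at least 7. Of 22626 probe sets, 18003 carried 1 symbol and named 11807 genes, updated by gene identifier through RefSeq GRCm38.p6, and 287 with several symbols and 4336 with none were left out. A gene was read from its brightest probe set (mean of 22 arrays).

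A level over the array's 40th percentile in 3 or more of the 12 incubated arrays was required (7550 genes), so a gene could pass through its LPS arrays alone. All 4 incubated groups entered a single fit (lmFit and eBayes, limma 3.58.1, R 4.3.3). The two-sided test of LPS minus oxLDL was adjusted by Benjamini-Hochberg over these genes, with calls under 0.05. Every ± is a standard error of that fit, and intervals are at 95%. The number of arrays limits the precision, and an exact permutation of 3 against 3 could not go below 0.1. Named genes were the 15 largest called rises and falls, every called member of 38 gene lists (944 entries, 806 on the array, 8 by an older symbol), the member with the smallest p of a list with no call, and any member of 9 core lists. The members, lists, groups and tests were chosen with earlier results of these data known, so they are no independent support. The fit was tested on simulated data. Alternatives covered scaling, level filter, probe sets, arrays fitted, variance prior, array weights and each array left out.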

Additional observations from a re-analysis of the deposited data

How the results depend on the processing

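No paired analysis was possible because the LPS replicates (3, 4 and 10) and the oxLDL replicates (14, 15 and 16) share no number. Fitting the 6 LPS and oxLDL arrays alone, with fewer arrays to estimate the spread, gave 210 calls, 103 higher with LPS and 107 lower. Leaving out each of the 12 incubated arrays gave 133 to 497 calls, 66 to 209 higher and 57 to 288 lower. The lowest counts came without LPS 4 (133), oxLDL 16 (143), oxLDL 15 (156), LPS 3 (177) and LPS 10 (234), and the highest without oxPAPC 13 (497). Without oxLDL 14 the lower calls fell to 118. The other settings gave 281 to 548 calls, within 1.5 times the 383, and shared 244 to 372 of them. No gene called in common under any setting changed direction. Of 82 named called genes, 35 stayed called whichever array was left out. Depth in reads does not apply to arrays. On the oxLDL side, signals near background limit the sizes of Cxcl10, Ccl5, Ccl3, Cxcl5, Il6, Il12b, Mmp13 and Car13. They also limit those of Ifit1, Ifi209, Oasl1, Mx1, Nfkbie, Tnfaip3 and Fcgr1. On the LPS side the same limit holds for Hpgd, Slc40a1 and Ccdc102a.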

Other observations

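Genes of the lysosome and transcription factors of endothelium were grouped after the calls had been seen, so their counts describe these arrays and carry no test. Of 50 tested lysosomal genes, 9 were lower with LPS than with oxLDL and 1 higher, with a median of -0.36. Over all tested genes 2.86% were called lower and 2.21% higher. The 9 were the carboxypeptidase Scpep1 (-1.07 ± 0.177), the sulfatase activator Sumf1 (-0.88 ± 0.22), acid sphingomyelinase Smpd1 (-0.87 ± 0.217), the hexosaminidase subunit Hexa (-0.82 ± 0.182), cathepsin Ctsd (-0.81 ± 0.165), the proton pump subunit Atp6v0d1 (-0.80 ± 0.187), arylsulfatase Arsa (-0.78 ± 0.137), acid glucosidase Gaa (-0.77 ± 0.157) and cathepsin Ctsb (-0.49 ± 0.125). The galactosidase Gla was higher (0.72 ± 0.138). Second probe sets of Scpep1 and Sumf1 gave -0.07 ± 0.124 and 0.33 ± 0.179, so the largest differences of the group were not shared by them, and those of Ctsb did not share its call either. Of the 50, 39 differences were below 0. Over the alternatives, 2 to 13 were called lower and the median ranged from -0.36 to -0.25. Lysosomal acid lipase Lipa, which frees cholesterol from lipoprotein, was at -0.53 ± 0.184 (adjusted p = 0.118), and the cholesterol transporters Npc1 and Npc2 at -0.51 ± 0.245 (0.26) and -0.45 ± 0.133 (0.0752).

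Of 27 tested endothelial transcription factors, 6 were lower with LPS: Foxo3 (-0.92 ± 0.211), Elf1 (-0.90 ± 0.225), Sox7 (-0.88 ± 0.204), Hhex (-0.80 ± 0.184), Lmo2 (-0.78 ± 0.15) and Fli1 (-0.76 ± 0.174). Other Foxo3 probe sets gave -0.05 and -0.81, another of Fli1 gave -0.55, and another of Rbpj 0.39. Higher with LPS were Rbpj, the DNA-binding partner of Notch (0.89 ± 0.144, adjusted p = 0.00785), and Ets1 (0.53 ± 0.134, adjusted p = 0.0423). Over the alternatives, 0 to 6 were called lower. Sox17, Erg and Gata2 were not called, at 0.30 ± 0.268, 0.56 ± 0.231 and -0.20 ± 0.146. Tollip, an adaptor that dampens Toll-like receptor signalling and was in none of the lists, was also picked after its values were seen. It averaged 7.96 with LPS and 9.10 with oxLDL (-1.14 ± 0.148, adjusted p = 0.0024), while its second probe set gave 0.26 ± 0.237.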
